A study of Mus musculus with 6 samples.

Results

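The 10 genes described here encode mitochondrial chaperones, which fold proteins inside the organelle, and mitochondrial proteases, which remove proteins that cannot be folded. They were taken by name: the chaperonin subunits Hspd1 and Hspe1, the HSP70 chaperone Hspa9 with its partners Dnaja3 and Grpel1, the HSP90 family member Trap1, and the proteases Lonp1, Clpp, Afg3l2 and Yme1l1. All 10 were found in the deposited table of 24016 genes, and all 10 had enough reads to be tested. Of the 10, Afg3l2, a catalytic subunit of an inner membrane protease, rose 1.69-fold in macrophages given a hydroxyestrogen. The other 9 did not pass the test.

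Most mitochondrial proteins are made in the cytosol. Those of the matrix are threaded unfolded through the organelle's membranes and pulled into the matrix by HSP70. Many are folded there by the HSP60 chaperonin with its HSP10 lid. Proteins that stay misfolded are cut by proteases of the matrix and the inner membrane. When such proteins build up, animal cells can raise the transcription of these chaperones and proteases, a program called the mitochondrial unfolded protein response. In mammalian cells it has been tied to the transcription factors ATF4, ATF5 and CHOP and to the heat shock factor HSF1. Macrophages stimulated with bacterial lipopolysaccharide (LPS) change their mitochondrial metabolism, and the study's title names mitohormesis, an adaptive answer to mild mitochondrial stress.

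The cells were macrophages grown with M-CSF from the bone marrow of C57BL/6N females aged 8 weeks. Cells for each of the 6 libraries received a compound or vehicle for 1 h and then LPS at 100 ng/mL for 6 h, before mRNA was sequenced. The hydroxyestrogen group held 2OHE2 (2-hydroxyestradiol), 4OHE1 (4-hydroxyestrone) and 2OHE1 (2-hydroxyestrone), which are catechol estrogens. The control group held the ethanol vehicle (EtOH), estradiol (E2) and an estrogen labelled 16Epi. Compounds came from stocks of 1 mM diluted 1 to 1000, since the final dose is garbled in the labels. Every compound had 1 library, so the SD of a group of 3 mixes differences between compounds with those between wells and libraries. Nothing in the labels tells if these were separate animals or cultures, and p-values here cover the spread of these 6 libraries alone, which may be technical. All 6 received LPS, so no unstimulated level can be given. Titles and the tables' column headings put the libraries in these groups, while the field for treatment names them the other way round.

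Reads in genes numbered 16424057 to 17326353 in the hydroxyestrogen libraries and 14734225 to 16059673 in the control libraries. The hydroxyestrogen libraries scattered more: over 3116 genes averaging 1000 reads or more, the log2 difference between a pair of libraries had an SD of 0.177 to 0.232 within that group and 0.126 to 0.145 within the controls. Both highest values involved 4OHE1. The 9 macrophage markers looked at, among them Csf1r and Cd68, were all detected and summed to 7190 to 8443 RPKM in hydroxyestrogen libraries and 8025 to 8441 RPKM in control libraries. RPKM is the number of reads per transcript length, scaled to the size of the library. Mertk was low, at 0.581 to 2.13 RPKM. For 6 of the 9 the groups did not overlap, against 20.0% of all 11991 tested genes, and 4 of the 9 had an unadjusted p under 0.05 in limma, against 13.5% of all tested genes. None of the 9 passed after adjustment. The Fc receptor Fcgr1 was at 54.4 to 62.4 RPKM with hydroxyestrogens and 74.0 to 77.0 RPKM in controls (adjusted p = 0.0585). The part of these markers in the results below was not tested. The T cell genes Cd3e, Cd3d and Cd2 and the B cell genes Cd79a, Ms4a1 and Pax5 were at 0 in every library. The 7 neutrophil and progenitor genes summed to 28.8 to 36.2 RPKM with hydroxyestrogens and 31.6 to 46.4 RPKM in controls, and the 5 stromal genes to 13.3 to 20.1 RPKM and 16.7 to 20.1 RPKM. None of the marker genes tested with limma passed after adjustment.

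The genes of HSP60 and its lid, Hspd1 and Hspe1, lie head to head, and the stretch between their starts serves both directions. In the build of the deposited tables (mm9) Hspd1 occupies chromosome 1 from 55134678 to 55144776 on the minus strand and Hspe1 from 55144992 to 55148161 on the plus strand, 215 bases apart. The same stretch in RefSeq's GRCm38.p6 sequence is shown because it holds the letters that heat shock factors are known to bind, written 5′ to 3′ on the Hspe1 strand, chr1:55087933-55088147. Capitals mark 3 overlapping matches to the heat shock element, searched as GAANNTTC or TTCNNGAA, which read the same on both strands.
between Hspd1 and Hspe1: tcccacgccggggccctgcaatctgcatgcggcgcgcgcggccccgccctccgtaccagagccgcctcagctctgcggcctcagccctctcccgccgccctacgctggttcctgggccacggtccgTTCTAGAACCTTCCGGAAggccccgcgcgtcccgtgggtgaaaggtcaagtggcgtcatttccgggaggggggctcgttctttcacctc
The 3 matches begin 89, 84 and 79 bases before the Hspe1 start. RefSeq also lists an Hspd1 start within Hspe1, which is not shown. Of the 8 members whose windows were searched (250 bases before to 50 after a start), Hspd1, Hspe1 and Clpp held a heat shock element. Of all 32851 RefSeq promoter windows of that length, 15.1% hold it. Members were counted by gene and the background by window, and Hspd1 and Hspe1 share the stretch shown. The antioxidant response element, searched as TGACNNNGC, was held by Lonp1 and by 12.4% of all windows. The cAMP response element, searched as TGACGTCA, was held by Trap1 and by 1.79% of all windows. The composite element of C/EBP and ATF factors, searched as TGATGNAA on both strands, was in 0 of the 8 and in 3.97% of all windows. A match describes letters and is no evidence of binding. Afg3l2 and Hspa9 were not used here for this search.

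**Figure D1:**
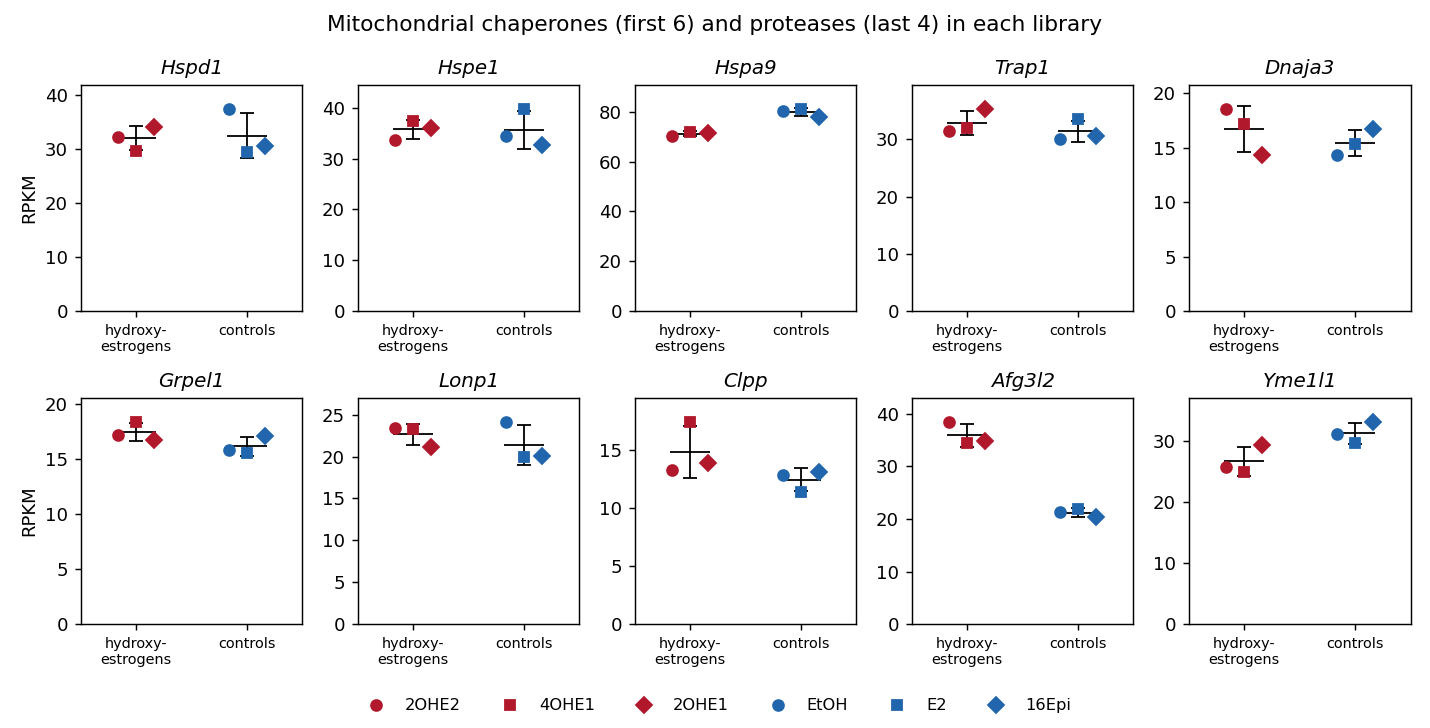
Level of each of the 10 members in each library, in RPKM on linear axes that start at 0, with hydroxyestrogens in red on the left and controls in blue on the right of each panel; horizontal bars are group means and whiskers the SD of 3 libraries. The groups stand clearly apart for Afg3l2 (34.4 to 38.4 RPKM against 20.3 to 21.9 RPKM), by little for Hspa9, Yme1l1 and Clpp, and overlap for the other 6.

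The comparison of groups asked whether macrophages given a catechol estrogen before LPS carried more mRNA of this protein quality machinery than those given vehicle or another estrogen. In limma fitted to 11991 genes, 1.88% had a Benjamini-Hochberg adjusted p below 0.05 (1.28% higher and 0.600% lower), and of the 10 members 1 did, Afg3l2, which was higher. With 1 gene called, the set as a whole cannot be said to have changed, and no member was called as lower. The groups did not overlap for 4 members, Afg3l2 and Clpp on the higher side and Hspa9 and Yme1l1 on the lower side, while 20.0% of all tested genes had no overlap. The median log2 difference of the members was 0.08 with 7 of 10 positive, against -0.02 with 45.7% positive over all tested genes. In the authors' deposited table, which rests on the same 6 libraries, Afg3l2 is the 1 member called (log2 difference 0.78, authors' adjusted p = 3.82e-13). There, 594 of 24505 genes were called, 341 higher and 253 lower with hydroxyestrogens. The smallest authors' adjusted p among the other 9 members is 0.223, for Yme1l1. In bulk RNA, fewer cells of a type and less RNA per cell cannot be told apart.

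Hspd1 and Hspe1 encode the barrel and the lid of the mitochondrial chaperonin and are the genes most often read as markers of mitochondrial protein stress. Hspd1 stood at 32.2, 29.6 and 34.1 RPKM with 2OHE2, 4OHE1 and 2OHE1, against 37.3, 29.5 and 30.6 RPKM with EtOH, E2 and 16Epi. The groups overlapped, and the highest library of all was the vehicle. The log2 difference was -0.02 ± 0.11 (SE; adjusted p = 0.971), with a 95% interval of 0.832-fold to 1.17-fold. Hspe1 stood at 33.7, 37.5 and 36.0 RPKM with 2OHE2, 4OHE1 and 2OHE1, against 34.4, 39.7 and 32.7 RPKM with EtOH, E2 and 16Epi. Its highest and lowest libraries were both controls. The log2 difference was 0.01 ± 0.10 (SE; adjusted p = 0.982), with an interval of 0.865-fold to 1.17-fold. The signs of these near-zero values turned in several alternative settings, which does not alter the intervals above. Although the pair shares its upstream stretch, the level of Hspd1 relative to Hspe1 within a library varied from 0.789 to 0.956 with hydroxyestrogens and from 0.742 to 1.09 in controls. It was highest in the vehicle library and lowest in the E2 library, and a two-sided exact permutation test between the groups gave p = 1. Hspd1 rested on 1165 to 1576 reads per library and Hspe1 on 415 to 564. GENCODE names 5 pseudogene copies of Hspd1, 6 of Hspe1 and 1 of Hspa9, none of which has an entry of its own in the table, so for these 3 genes reads shared with a copy could not be told apart.

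Hspa9, or mortalin, is the mitochondrial HSP70 that pulls proteins into the matrix. It was the most abundant of the 10, at 70.1, 71.9 and 71.5 RPKM with 2OHE2, 4OHE1 and 2OHE1, against 80.3, 81.0 and 77.9 RPKM with EtOH, E2 and 16Epi. All 3 hydroxyestrogen libraries lay below all 3 controls, by a small amount. The log2 difference was -0.16 ± 0.07 (SE; 95% interval -0.31 to -0.02), a ratio of means of 0.893, and it did not pass (limma, adjusted p = 0.317). Unadjusted p-values under 0.05 were found for 13.5% of all tested genes and for 3 of the 10 members, which were Afg3l2, Hspa9 and Yme1l1. Dnaja3, or Tid1, is the HSP40 partner that hands substrates to Hspa9. Its values were 18.5, 17.2 and 14.4 RPKM with 2OHE2, 4OHE1 and 2OHE1, against 14.3, 15.3 and 16.7 RPKM with EtOH, E2 and 16Epi. 2OHE2 and 4OHE1 were the highest of all, while 2OHE1 was about level with the lowest control, and the log2 difference was 0.11 ± 0.13 (SE; adjusted p = 0.772).

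Grpel1 is the nucleotide exchange factor that resets Hspa9 after each cycle. It stood at 17.2, 18.4 and 16.7 RPKM with 2OHE2, 4OHE1 and 2OHE1, against 15.8, 15.5 and 17.1 RPKM with EtOH, E2 and 16Epi. Apart from 16Epi, the controls lay below the 3 hydroxyestrogen libraries, and the log2 difference was 0.11 ± 0.10 (SE; adjusted p = 0.690). Grpel1 overlaps Tada2b on the other strand (2.57 to 4.20 RPKM), and whether reads were counted by strand is not stated in the sources used here. Trap1 is the HSP90 family member of the mitochondrial matrix. It stood at 31.4, 32.0 and 35.3 RPKM with 2OHE2, 4OHE1 and 2OHE1, against 30.1, 33.5 and 30.6 RPKM with EtOH, E2 and 16Epi. The groups overlapped, and the log2 difference was 0.06 ± 0.09 (SE; adjusted p = 0.814). Trap1 overlaps Dnase1 on the other strand, which was at most at 0.679 RPKM. For the 6 chaperones and cochaperones together, the log2 differences ran from -0.16 to 0.11 and their 95% intervals stayed within -0.31 to 0.39.

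Lonp1 and Clpp are proteases of the matrix. Lonp1, an ATP-dependent protease that degrades oxidised and misfolded proteins, stood at 23.4, 23.3 and 21.2 RPKM with 2OHE2, 4OHE1 and 2OHE1, against 24.1, 19.9 and 20.1 RPKM with EtOH, E2 and 16Epi. The vehicle library was the highest and the other two controls the lowest, so the groups overlapped (log2 difference 0.09 ± 0.11 SE, adjusted p = 0.791). Clpp is the proteolytic chamber that works with the unfoldase Clpx. It stood at 13.3, 17.4 and 13.9 RPKM with 2OHE2, 4OHE1 and 2OHE1, against 12.9, 11.3 and 13.1 RPKM with EtOH, E2 and 16Epi. The groups did not overlap, but 2OHE2 and 16Epi were almost equal and the distance came mostly from 4OHE1. The log2 difference was 0.24 ± 0.14 (SE; adjusted p = 0.484). Without 4OHE1 it was 0.13. Clpp was the least abundant member and rested on 300, 412 and 307 reads with 2OHE2, 4OHE1 and 2OHE1 and on 281, 232 and 262 reads with EtOH, E2 and 16Epi.

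Afg3l2 and Yme1l1 are proteases of the inner membrane that belong to the same family of ATP-driven zinc peptidases and face opposite sides of it. Afg3l2 is a catalytic subunit of the m-AAA protease, which faces the matrix, matures a mitochondrial ribosomal protein and removes damaged respiratory chain subunits. It stood at 38.4, 34.4 and 34.9 RPKM with 2OHE2, 4OHE1 and 2OHE1, against 21.4, 21.9 and 20.3 RPKM with EtOH, E2 and 16Epi. Both groups were tight, and the lowest hydroxyestrogen library was far above the highest control. The means were 35.9 ± 2.19 RPKM and 21.2 ± 0.795 RPKM (SD, n = 3 each), and the log2 difference was 0.76 ± 0.09 (SE; 95% interval 0.56 to 0.96; adjusted p = 0.00398). Afg3l2 rested on 1958 to 2203 reads per hydroxyestrogen library and 1029 to 1184 per control library, and no other gene of the table overlaps it. Its call held without any 1 of the 6 libraries (log2 difference 0.71 to 0.79, adjusted p from 0.00894 to 0.0332). Leaving out 4OHE1, a library involved in both of the highest SD values above, gave 0.79. The call was lost when limma's prior variance was not allowed to follow expression (adjusted p = 0.0809), a setting in which 12 genes in all passed.

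Yme1l1 is the i-AAA protease, which faces the intermembrane space and processes the fusion protein Opa1. It stood at 25.7, 25.0 and 29.4 RPKM with 2OHE2, 4OHE1 and 2OHE1, against 31.1, 29.7 and 33.2 RPKM with EtOH, E2 and 16Epi. Here the hydroxyestrogen libraries were the lower ones, with 2OHE1 and E2 almost touching. The log2 difference was -0.23 ± 0.10 (SE), with a 95% interval of -0.45 to -0.01, which did not pass (limma, adjusted p = 0.341). The 4 proteases thus ranged from -0.23 to 0.76 in log2 difference, against -0.16 to 0.11 for the 6 chaperones and cochaperones.

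**Figure D2:**
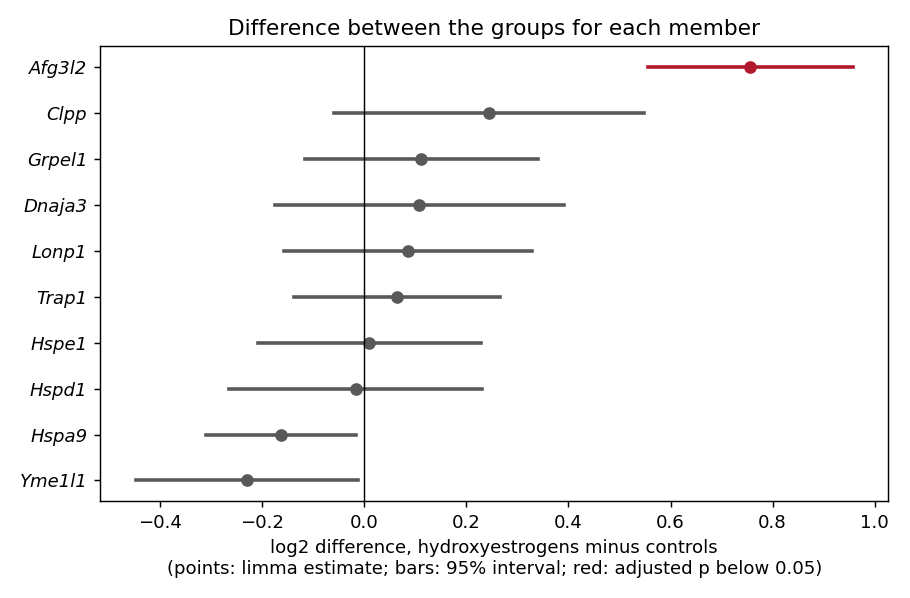
Log2 difference of hydroxyestrogens minus controls for each member (limma estimate on log2(RPKM + 0.1) with its 95% interval), ordered by size, with Afg3l2 in red as the gene that passed an adjusted p of 0.05. Afg3l2 lies at 0.76; the intervals of Hspa9 and Yme1l1 lie just below 0, but neither gene passed after adjustment over all tested genes, and the other 7 intervals include 0.

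Ratios taken within a library do not depend on how libraries were scaled. In all, 7 pairs were computed, chosen after the members' values were seen. For 5 the groups did not overlap (exact permutation p = 0.1 each), and for 2 they did, Lonp1 over Clpp and Hspd1 over Hspe1. Each of the 5 held Afg3l2, Hspa9 or Clpp, whose own groups did not overlap. Their separation was thus partly set by the choice, and their p-values add no support. Spg7, or paraplegin, is another subunit of the m-AAA protease. It was at 22.3, 24.6 and 21.5 RPKM with 2OHE2, 4OHE1 and 2OHE1, against 18.9, 21.4 and 21.0 RPKM with EtOH, E2 and 16Epi. The log2 difference of Spg7 was 0.16 ± 0.10 (SE; adjusted p = 0.549). The level of Afg3l2 relative to Spg7 was 1.58 ± 0.165 with hydroxyestrogens and 1.04 ± 0.0825 in controls (SD, n = 3 each). The groups of this ratio did not overlap, and a two-sided exact permutation test gave p = 0.1, the smallest that 3 against 3 allows. The level of Afg3l2 relative to Yme1l1 was 1.49, 1.37 and 1.19 with 2OHE2, 4OHE1 and 2OHE1, against 0.687, 0.738 and 0.613 with EtOH, E2 and 16Epi. Afg3l2 was the more abundant of the pair in all 3 hydroxyestrogen libraries and the less abundant in all 3 controls (exact permutation p = 0.1).

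Hspa9 could be set beside Hspa8, the constitutive HSP70 of the cytosol. Hspa8 was at 225.6, 222.8 and 224.2 RPKM with 2OHE2, 4OHE1 and 2OHE1, against 193.9, 185.0 and 183.2 RPKM with EtOH, E2 and 16Epi. All 3 hydroxyestrogen libraries were higher, yet its log2 difference of 0.26 ± 0.06 (SE) narrowly missed the threshold (adjusted p = 0.0647). It passed in 3 alternative settings, among them limma-voom (adjusted p = 0.0347). The level of Hspa9 relative to Hspa8 was 0.317 ± 0.00605 with hydroxyestrogens and 0.426 ± 0.0118 in controls (SD, n = 3 each; exact permutation p = 0.1). Relative to Grpel1, its exchange factor, Hspa9 was at 4.09 ± 0.175 and 4.95 ± 0.349. Clpp relative to Clpx was at 2.20 ± 0.214 with hydroxyestrogens and 1.68 ± 0.110 in controls, and Clpx itself had a log2 difference of -0.14 ± 0.15 (SE; adjusted p = 0.749). Lonp1 relative to Clpp was at 1.55 ± 0.211 with hydroxyestrogens and 1.72 ± 0.173 in controls (SD, n = 3 each; exact permutation p = 0.4).

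Ordered by mean level over the 6 libraries, Hspa9 (75.4 RPKM) led, followed by Hspe1 (35.7 RPKM), Hspd1 (32.2 RPKM), Trap1 (32.2 RPKM), Yme1l1 (29.0 RPKM) and Afg3l2 (28.5 RPKM). Lonp1 (22.01 RPKM), Grpel1 (16.8 RPKM), Dnaja3 (16.1 RPKM) and Clpp (13.6 RPKM) followed. Only the steps from Hspa9 to Hspe1 and from Lonp1 to Grpel1 exceeded the range over libraries, and all other neighbours in that order overlapped. Summed over the 10 genes, levels were 304.0, 306.7 and 307.2 RPKM with 2OHE2, 4OHE1 and 2OHE1, against 301.7, 297.4 and 292.3 RPKM with EtOH, E2 and 16Epi. Without Afg3l2 the sums were 265.6, 272.3 and 272.3 RPKM, against 280.3, 275.5 and 271.9 RPKM. The totals with hydroxyestrogens were the higher ones only when Afg3l2 was included. Afg3l2 made up 11.2% to 12.6% of the sum in hydroxyestrogen libraries and 6.95% to 7.36% in control libraries.

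The next comparison took the catechol estrogens singly, each library against the 3 controls, which were the source of the spread. The controls scattered less than the hydroxyestrogen libraries, so p-values of single compounds may be too small. Pairs with 4OHE1 scattered the most, and the part of this in the share of genes called with 4OHE1 was not tested. All 3 comparisons used the same controls. With each catechol estrogen Afg3l2 lay above all 3 controls. Its log2 difference was 0.86 ± 0.10 (SE) with 2OHE2 (adjusted p = 0.0308), 0.70 ± 0.10 with 4OHE1 (adjusted p = 0.0259) and 0.72 ± 0.10 with 2OHE1 (adjusted p = 0.0542). It passed with 2OHE2 and 4OHE1 and just missed with 2OHE1, which is no sign that 2OHE1 differed from the others. Of all tested genes, 0.609% were called with 2OHE2 (0.300% higher, 0.309% lower), 3.69% with 4OHE1 (1.41% higher, 2.28% lower) and 0.542% with 2OHE1 (0.334% higher, 0.208% lower). The calls of Afg3l2 with 2OHE2 and 4OHE1 were lost without E2 (adjusted p = 0.140 and 0.0846) or without 16Epi (0.0629 and 0.0598), at log2 differences of 0.67 to 0.88, and a call with 2OHE1 was gained without EtOH (0.0359).

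No other member passed with a single compound. Clpp was at 0.48 ± 0.14 (SE) on the log2 scale with 4OHE1 (adjusted p = 0.114), against 0.09 with 2OHE2 and 0.16 with 2OHE1. Yme1l1 was at -0.28 with 2OHE2 and -0.32 with 4OHE1 (adjusted p = 0.341 and 0.147), and at -0.09 with 2OHE1. Hspa9 was at -0.18, -0.15 and -0.16 with 2OHE2, 4OHE1 and 2OHE1, close together and called with none of them. The other 6 members stayed between -0.13 and 0.27. The largest of these was Dnaja3 with 2OHE2, at 0.27 ± 0.14 (SE; adjusted p = 0.452).

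**Figure D3:**
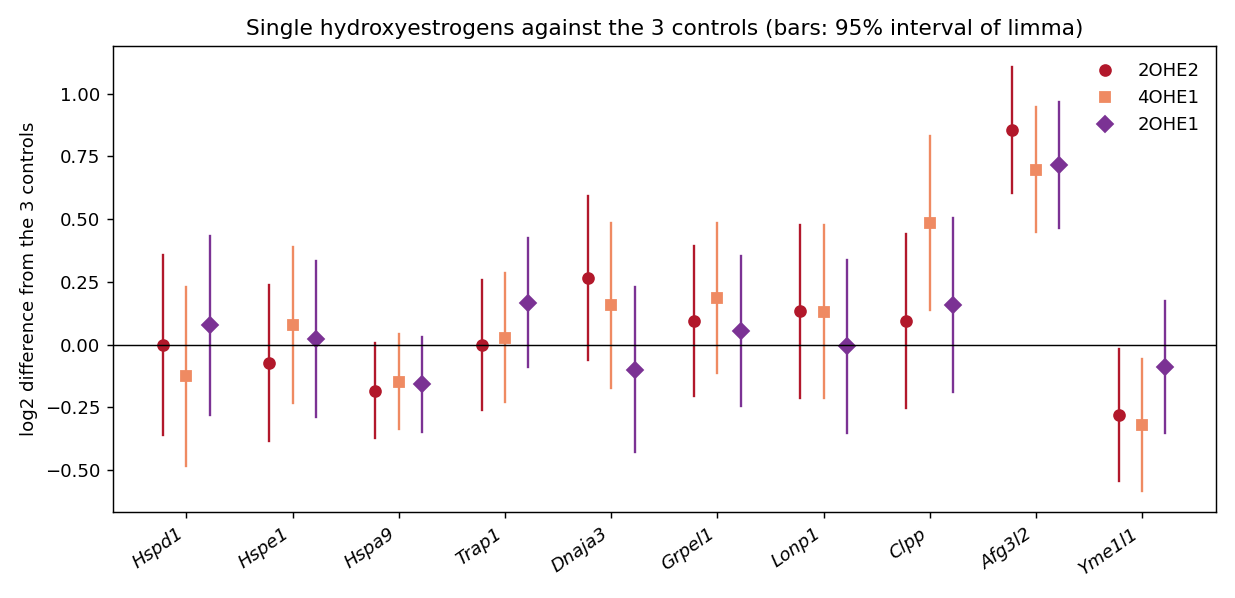
Log2 difference of each hydroxyestrogen library from the 3 controls for the 10 members, with the 95% interval of limma; circles are 2OHE2, squares 4OHE1 and diamonds 2OHE1. For Afg3l2 all 3 compounds lie between 0.70 and 0.86, and for Clpp 4OHE1 lies at 0.48 above the other two.

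All compounds were given at the same dilution and for the same times, so they could be compared with each other in 6 pairs. 2OHE2 and 2OHE1 differ in the estradiol or estrone core, and 4OHE1 and 2OHE1 in the place of the added hydroxyl group. The spread for pairs of hydroxyestrogens came from the 3 controls. That for pairs of controls came from the 3 hydroxyestrogen libraries, which scattered more. For Afg3l2 the SE of a difference was 0.128 between hydroxyestrogens and 0.195 between controls. Counts and shares called are therefore not comparable between both kinds of pair. Between hydroxyestrogens no member passed the test: of 30 differences 0 passed in limma, 0 had an unadjusted p under 0.05, and the smallest adjusted p was 0.347 (Clpp, 4OHE1 against 2OHE2, log2 difference 0.39, 95% interval -0.04 to 0.81). For Afg3l2 the difference was 0.14 (interval -0.17 to 0.45) between 2OHE2 and 2OHE1, and -0.02 (interval -0.32 to 0.29) between 4OHE1 and 2OHE1. These intervals do not show that the compounds acted alike. Over all tested genes 0.0417% were called between 2OHE2 and 2OHE1 (0.0167% higher, 0.0250% lower), 0.0417% between 4OHE1 and 2OHE1 (0.00834% higher, 0.0334% lower) and 0.0751% between 4OHE1 and 2OHE2 (0.0417% higher, 0.0334% lower). Between the 3 controls 0 of 30 differences passed (0 with an unadjusted p under 0.05), and Afg3l2 differed by 0.03 between E2 and EtOH (interval -0.42 to 0.49) and by -0.07 between 16Epi and EtOH (interval -0.53 to 0.38). The widest difference between controls was that of Hspd1, at -0.34 for E2 against EtOH (interval -0.79 to 0.11). The share of all tested genes called was 0.00834% for E2 against EtOH and 0.0167% for the other two control pairs.

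By the root mean square distance between log2 values centred on each gene's mean, the genes whose course over the 6 libraries was closest to that of Afg3l2 were Abcc4 (0.0753), Hsd3b7 (0.0761), 5430435G22Rik (0.0770), Tmcc1 (0.0867) and Slc22a4 (0.0875), of 8437 genes searched. Their log2 differences between the groups were 0.73, 0.80, 0.67, 0.61 and 0.90. Being chosen for likeness over the same libraries, they had to differ by about as much as Afg3l2, so these values are a description. Closest to Hspd1 were AW112010 (0.0410), Rab11fip5 (0.0451), Klhdc4 (0.0490), Gm16712 (0.0492) and Rnf113a2 (0.0495), with log2 differences from -0.05 to -0.01, which the choice likewise fixed. No other member was among the genes named for either.

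No gene passed the test in 9 related lists. Of all tested genes 1.88% passed and 13.5% had an unadjusted p under 0.05 in limma. These shares apply to every list below, and 0 passing in a list this short says little. Among 13 further chaperones and cochaperones of the organelle limma called 0, and 1 reached an unadjusted p under 0.05; their median log2 difference was 0.04. The smallest p was that of Atpaf2, an assembly factor of ATP synthase, at 0.32 ± 0.14 (SE; adjusted p = 0.355). Grpel2, the close relative of Grpel1, was at 2.39 ± 0.623 against 1.88 ± 0.478 RPKM (SD, n = 3 each; adjusted p = 0.679). Among 17 further proteases and peptidases 0 passed, 0 were under 0.05 unadjusted, and the median was 0.05. Of 27 genes of protein import 0 passed (2 unadjusted), with a median of 0.04. Gfer, an oxidase of the intermembrane space, was at 0.39 ± 0.14 (SE; adjusted p = 0.263). Timm23, the channel of the inner membrane, was at 14.6, 8.78 and 15.2 RPKM with 2OHE2, 4OHE1 and 2OHE1, against 9.05, 8.70 and 9.37 RPKM with EtOH, E2 and 16Epi. The 4OHE1 library lay with the controls. Timm23 did not pass in limma over all libraries (adjusted p = 0.351) and passed without 4OHE1 (log2 difference 0.71, adjusted p = 0.0313). Leaving out the library closest to the controls favours a pass, so this adds no support. Over the 6 limma fits with a library left out, the adjusted p of Timm23 ran from 0.0313 to 0.619.

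Prohibitins and partners of the proteases (6 genes) and 20 genes often read as a measure of mitochondrial content had 0 past the test, 0 also with an unadjusted p under 0.05, and medians of -0.01 and 0.01. Phb, a prohibitin of the ring complexes that bind the m-AAA protease, was at 0.18 ± 0.10 (SE; adjusted p = 0.514) and Phb2, its partner, at -0.11 ± 0.07 (adjusted p = 0.505). Opa1, the substrate of Yme1l1, was at -0.09 ± 0.12 (adjusted p = 0.818). The ATP synthase subunit Atp5a1 was at 246.4 ± 10.7 RPKM with hydroxyestrogens and 264.4 ± 3.55 RPKM in controls (SD, n = 3 each; adjusted p = 0.514), and the outer membrane channel Vdac1 at 101.1 ± 4.19 and 95.1 ± 2.92 RPKM (adjusted p = 0.619).

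The list of regulators of unfolded protein responses was broad. It also held the mitochondrial gene regulators Nrf1 and Tfam, and Tfam was counted under mitochondrial content too. Among its 14 tested genes 0 passed and the median was 0.03, while 2 had an unadjusted p under 0.05 in limma, against 13.5% of all tested genes. Those 2 were Atf4 (log2 difference 0.32 ± 0.10 SE, adjusted p = 0.192) and Atf5 (0.23 ± 0.09 SE, adjusted p = 0.304). Atf5, the factor most often named for the mitochondrial response, stood at 34.1, 33.7 and 30.7 RPKM with 2OHE2, 4OHE1 and 2OHE1, against 29.6, 27.7 and 26.7 RPKM with EtOH, E2 and 16Epi, without overlap. Atf4 was called only with limma on the authors' log2 values (adjusted p = 0.0370). Ddit3, which encodes CHOP, was low in all libraries, at 4.88 ± 1.10 against 4.76 ± 1.32 RPKM (SD, n = 3 each; adjusted p = 0.960).

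The chaperones of other compartments gave the contrast for Hspd1, Hspa9 and Trap1. Of 21 tested cytosolic HSP70, HSP90 and HSP40 genes 0 passed, with a median of 0.09. An unadjusted p under 0.05 was found for 5 of them, against 13.5% of all tested genes (limma). Hsp90aa1, the inducible HSP90 and a relative of Trap1, was at 0.23 ± 0.10 (SE; adjusted p = 0.338), and Hsp90ab1, its constitutive form, at 0.06 ± 0.06 (adjusted p = 0.747). Dnaja1 and Dnaja2, cytosolic relatives of Dnaja3, were at 0.03 and 0.06 (adjusted p = 0.960 and 0.779). All 8 subunits of CCT, the chaperonin of the cytosol, had negative differences, where 45.7% of all tested genes were positive and their median was -0.02. The groups did not overlap for 4 of the 8, against 20.0% of all tested genes, but 0 passed in limma, 0 had an unadjusted p under 0.05, and the median was -0.09. Tcp1 was the farthest from 0, at -0.16 ± 0.07 (SE; adjusted p = 0.370). In the endoplasmic reticulum 0 of 16 passed (2 unadjusted), and Hspa5 (BiP) and Hsp90b1, the counterparts of Hspa9 and Trap1 there, were at 0.01 and 0.00 (adjusted p = 0.973 and 0.991).

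**Figure D4:**
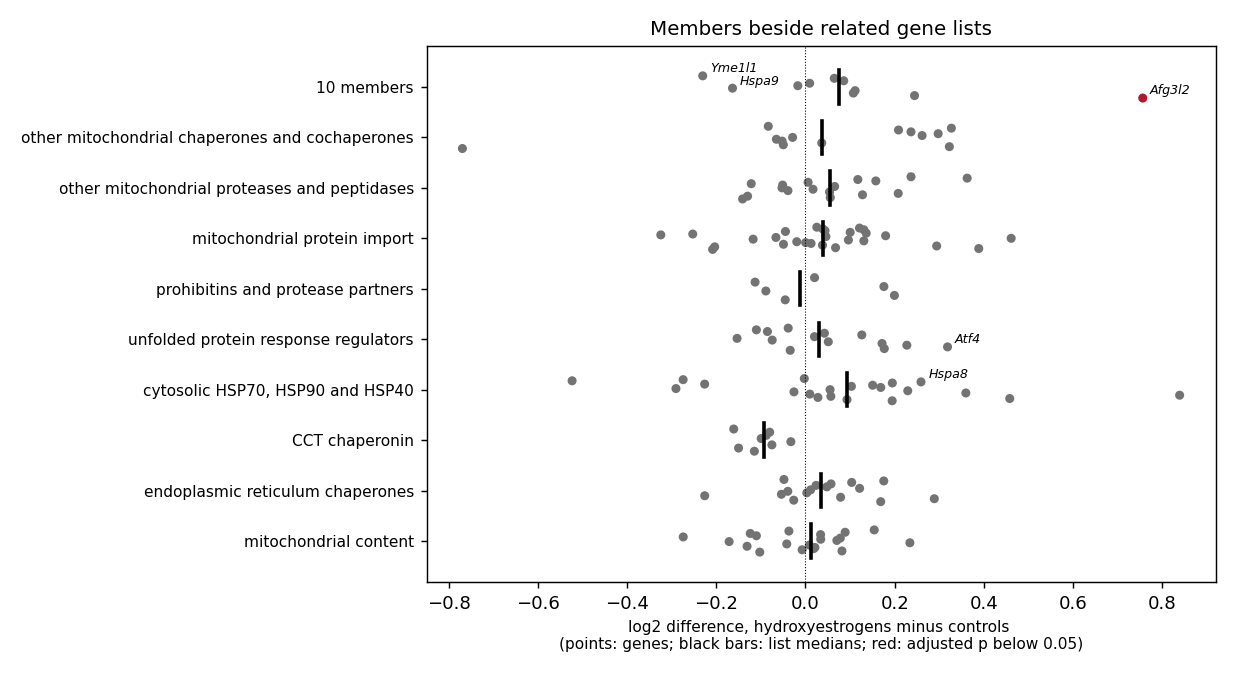
Log2 difference of hydroxyestrogens minus controls for the 10 members and for the tested genes of 9 related lists; each point is a gene, black bars are list medians, and red marks an adjusted p below 0.05. Afg3l2 at 0.76 is the single red point, and the list medians lie between -0.09 and 0.09.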

How the data were processed

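RNA sequencing values of 6 libraries were used. RPKM values (reads over exons per kilobase, scaled to library tags, 1 entry per gene) were made by the authors with HOMER on mm9, per the file headers. The authors' comparison table holds log2 expression values of an unnamed transformation, a log2 fold change whose sign is positive for genes higher in controls, p-values and adjusted p-values; its fold changes were turned round here. STAR, HOMER, DESeq2 and edgeR are named without versions, per the submitters' processing notes.

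RPKM times length and library total gave whole reads: in every library 100% of the 1873 to 2607 values below 20 reads (genes under 6000 nt) lay within 0.1 of a whole number. The test covered the 11991 genes that reached 10 reads in 3 or more libraries, with limma 3.58.1 in R 4.3.3 on log2(RPKM + 0.1), a variance trend, and two-sided p-values with Benjamini-Hochberg adjustment (threshold 0.05); the pseudocount slightly understates changes of low genes. Single compounds were fitted with 1 coefficient each (9 comparisons with the pairs), which assumes that a lone library varies like the other group. For single ratios an exact permutation test was used. In data simulated for the comparison of groups, 90.1% of 1.5-fold changes in genes of at least 300 reads were recovered. Those data gave every gene the same dispersion in both groups. The real groups scattered unequally, so this share may be too high for the real genes.

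Members, gene lists (201 genes, of which 200 were in the table, 7 under an older symbol) and tests were chosen with earlier results of these data known. Named genes were all members, their relatives in other compartments, up to 4 genes with the smallest p per list, and the 5 genes closest in course to Afg3l2 and Hspd1; Ddit3, Mertk and Fcgr1 were chosen after their values were seen. Promoter sequence is RefSeq's, GRCm38.p6. Alternatives were another pseudocount, other filters, limma-voom, no variance trend, median-ratio scaling, the authors' log2 values, array weights, a block for replicate number, and leaving out each library.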

Additional observations from a re-analysis of the deposited data

How the results depend on the processing

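For the members, 1 gene was called in all alternatives except without the variance trend, where the count was 0, and Afg3l2 kept its direction in all 15 (log2 difference 0.51 to 0.79, adjusted p from 5.76e-06 to 0.0809). The count over all genes moved more: 94 without a filter, 360 among genes with 100 reads in every library, 474 with limma-voom, 12 without the trend, 483 from the authors' log2 values, and 64 to 191 when a library was left out (125, 83 and 64 without control replicates 1, 2 and 3, which were EtOH, E2 and 16Epi). With the replicate number as a block 165 genes passed, and of the members again 1; the same-numbered libraries deviated together at correlations of -0.111, 0.0684 and 0.0809, so the numbers were not taken as pairs. Counts of members called for single compounds were 0 without a filter and without the trend for 2OHE2 and 4OHE1, 2 with limma-voom for 4OHE1 (Yme1l1, at -0.31, was added), 1 with limma-voom and with median-ratio scaling for 2OHE1, and 0 to 1 when a control was left out. Signs that turned were those of values near 0. In the comparison of groups, Hspd1 turned to 0.0078 with median-ratio scaling, 0.00048 with the authors' log2 values and 0.0057 with array weights, Hspe1 to -0.0066 with array weights, and Hsp90b1 to -0.0022 with limma-voom. Leaving out a library gave -0.083 to 0.087 for Hspd1, -0.049 to 0.091 for Hspe1, -0.055 to 0.085 for Hspa5 and -0.023 to 0.027 for Hsp90b1. For single compounds, Lonp1 turned to 0.026 with 2OHE1 under median-ratio scaling. Leaving out a control gave -0.068 to 0.102 for Hspd1, -0.131 to 0.0090 for Hspe1 and -0.031 to 0.046 for Trap1 with 2OHE2, -0.0013 to 0.075 for Trap1 with 4OHE1, and -0.037 to 0.103 for Hspe1 and -0.055 to 0.082 for Lonp1 with 2OHE1. The cause of these changes was not tested. Of 1033 values of named genes under an alternative, 992 kept their direction and side of the threshold.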
